A study of Mus musculus with 9 samples.

Results

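The autosomal transcriptome of the mouse MII oocyte, the mature egg arrested at metaphase of the second meiotic division, was compared with that of E12.5 PGCs, the primordial germ cells of the female embryo at embryonic day 12.5 (PGCs below). All genes on the 19 autosomes with an FPKM (fragment counts scaled to transcript length and library size) above 1 in either cell type were taken. This gave 13782 genes of 34952 autosomal genes and 37979 genes in the table. RNA had been sequenced from 3 libraries of E12.5 PGCs, 2 of MII oocytes, 2 of GV oocytes (germinal vesicle stage oocytes, before maturation) and 2 of FGSCs (female germline stem cells). The labels give the C57BL/6 strain, female sex and passage 0 for every library. By the methods of the study, PGCs and FGSCs were isolated from Mvh-cre;ROSA mT/mG mice and sorted for the fluorescent reporter of Mvh (Ddx4), so that Ddx4 was used to obtain these cells. How the MII oocytes were collected, and how many cells or animals went into a library, is not given in the sources used here. The authors pooled the libraries of a cell type into 1 FPKM value per gene. No spread between libraries was therefore at hand, no test was made, and "higher" and "lower" below mean at least 2-fold apart on the scale log2((MII + 1)/(PGC + 1)), with 1 FPKM added to each value.

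At E12.5 the germ cells of the female gonad are still dividing by mitosis and are about to enter meiosis. The egg stands at the other end of this path. It has gone through meiotic prophase, a long growth phase in the follicle and the first meiotic division, it is transcriptionally silent, and it carries the stored maternal mRNAs and proteins on which the embryo depends until its own genome is switched on. During maturation many stored mRNAs are translated or degraded, under the control of their poly(A) tails. The libraries were primed with oligo(dT), so that transcripts were read through that tail, whose length was not measured.

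Markers fixed for each cell type were checked first. All 10 markers of PGCs were above 1 FPKM in PGCs, where they ranged from 10.1 FPKM (Pou5f1) to 1288 FPKM (Dppa3). They did not mark PGCs against the egg as a group, since 8 of the 10 were also above 1 FPKM in MII oocytes, where 5 were higher and 3 lower, and their sum was 1710 FPKM in PGCs and 11668 FPKM in MII oocytes, most of it Dppa3. Of 12 markers of MII oocytes, 11 had a usable value in MII oocytes, between 171 FPKM (Zp2) and 12411.5 FPKM (Gdf9). The same 11 summed to 31.1 FPKM in PGCs and to 39730 FPKM in MII oocytes, and all 11 were higher in MII oocytes. The other marker, H1foo, which encodes the linker histone of the oocyte, was listed at 0 FPKM in MII oocytes with a note of the software that the locus held too many reads, and it was at 2248 FPKM in GV oocytes. Spin1, which encodes a chromatin reader of the egg, carried the same note at 0 FPKM, against 650 FPKM in GV oocytes and 45.4 in PGCs. These 2 zeros are not levels, and the differences below cover the other 13780 genes.

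Most genes stood far apart in the 2 cell types. Of 13780 members, 6185 (44.9%) were higher in MII oocytes, 4750 (34.5%) were lower, and 2845 (20.6%) were within 2-fold. At 4-fold the counts were 3949 and 2870. The median difference was 0.55 on the log2 scale, with quartiles of -1.67 and 2.29. Each list count below is to be read beside the shares of 44.9% and 34.5%, and each list median beside 0.55. This shift of all members depends on the scale of the columns. The autosomal FPKM values summed to 636972 in PGCs and to 1149039 in MII oocytes, 1.80 times as much, and with both columns scaled to the same sum the median was -0.15, 4576 members were higher and 5648 lower.

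Both cell types shared 7645 members above 1 FPKM, whereas 2754 were above 1 FPKM only in PGCs and 3381 only in MII oocytes. Of the genes above 1 FPKM in PGCs, 855 were listed at 0 in MII oocytes, and of those above 1 FPKM in MII oocytes, 1482 were listed at 0 in PGCs. Very high values were more frequent in the MII column. In MII oocytes 177 members were above 1000 FPKM, against 99 in PGCs. This count depends on the scale, since the autosomal sum in MII oocytes was 1.80 times that in PGCs. As a share, which does not depend on the scale, 50% of the autosomal FPKM was held by 214 genes in MII oocytes, against 273 in PGCs. The smallest values at the limit of 1 FPKM were those of 1700054M17Rik (0 FPKM in PGCs and 1.00004 in MII oocytes) and Adamts9 (1.0004 and 0.126) just inside, and of Zfp488 (0.9997 and 0.368) just outside.

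**Figure D1:**
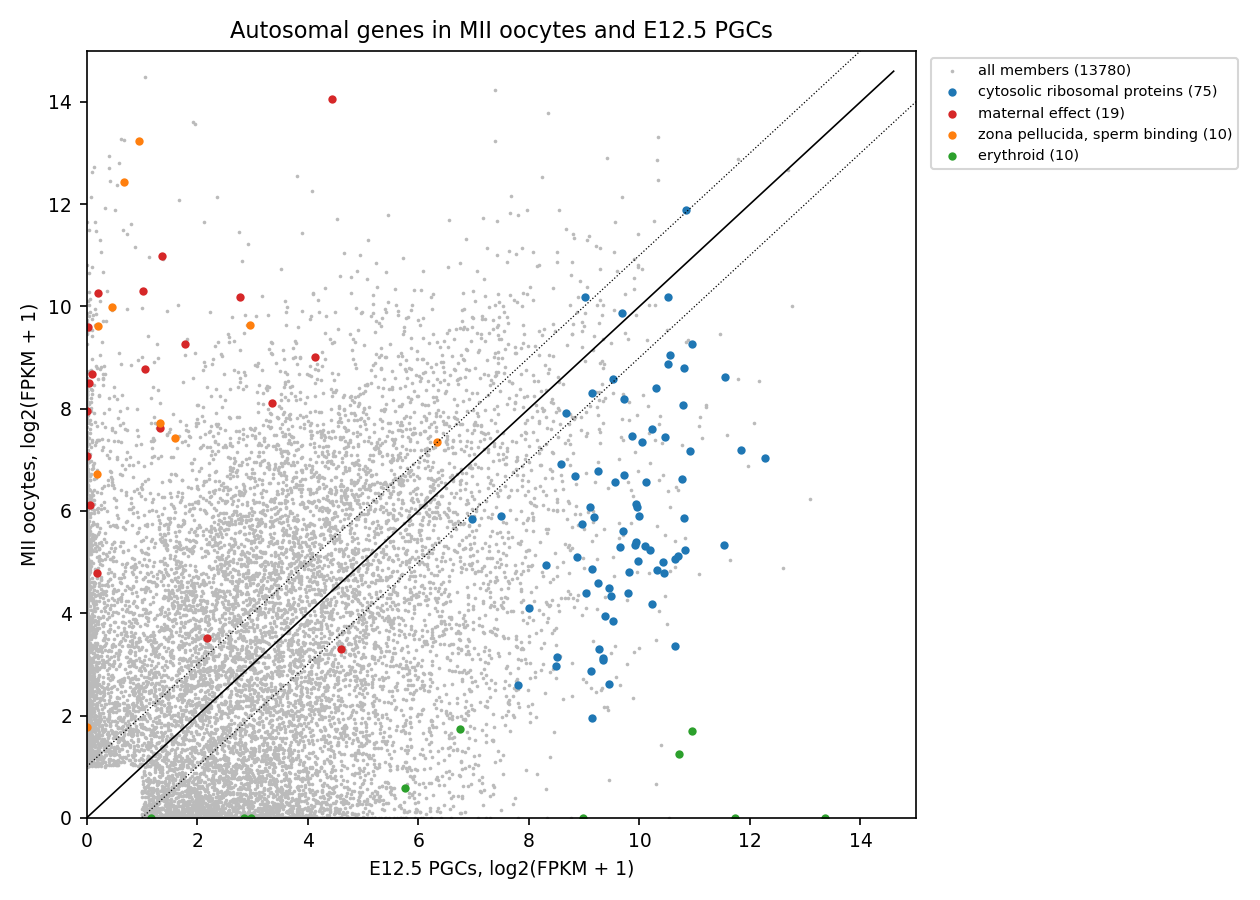
Each point is 1 of 13780 autosomal members, with log2(FPKM + 1) in PGCs on the x axis and in MII oocytes on the y axis. The solid line marks equal values and the dotted lines a 2-fold difference. The 75 ribosomal protein genes (blue) lie mostly below the lower dotted line, the maternal effect (red) and zona pellucida (orange) genes lie mostly above the upper one, and the erythroid genes (green) lie along the x axis.

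The 10 genes with the largest difference towards the egg were all close to absent from PGCs, at 1.09 FPKM or less. Bcl2l10, which encodes an oocyte member of the Bcl-2 family of regulators of cell death, was at 1.09 FPKM in PGCs, 824 in GV oocytes and 22843 in MII oocytes, the highest value of any autosomal gene in the egg. Its difference was 13.42 on the log2 scale. Btg4, an adaptor of the CCR4-NOT deadenylase needed for the removal of maternal mRNA, was at 0.543 FPKM in PGCs, 309 in GV oocytes and 9855 in MII oocytes. The others were E330021D16Rik, E330034G19Rik, the homeobox gene Obox2, Omt2b, Omt2a, Oosp1 (an oocyte-secreted protein), Oas1d (an oocyte member of the oligoadenylate synthetase family) and Tcl1b1, with MII values between 4517 FPKM (Tcl1b1) and 9719 FPKM (E330034G19Rik). The value in MII oocytes was above that in GV oocytes for each of these 10 genes, by 4.09 (E330034G19Rik) to 6.31 (Obox2) on the log2 scale.

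The 10 genes with the largest difference towards the fetal germ cell included 5 globin genes. Hba-x, the embryonic zeta-globin, was at 10452 FPKM in PGCs, the highest autosomal value there, at 10.2 in GV oocytes and listed at 0 in MII oocytes. Hbb-y, the embryonic epsilon-globin, was at 3378, 9.60 and 0 FPKM in that order, and Hba-a1, Hba-a2 and Hbb-bh1 followed. Ifitm1, an interferon-induced membrane protein known as a marker of early germ cells, was at 1479 FPKM in PGCs, 78.9 in GV oocytes and 0 in MII oocytes. Its neighbour Ifitm2 was at 1341, 66.4 and 1.68 FPKM. Utf1, a chromatin factor of pluripotent cells, was at 434, 2.25 and 0 FPKM. The other 2 were Mdk, the growth factor midkine, at 1260 FPKM in PGCs and 0.577 in MII oocytes with a span shared with another gene, and Uqcrc1, a core subunit of respiratory complex III, at 695 and 0.674 FPKM.

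**Figure D2:**
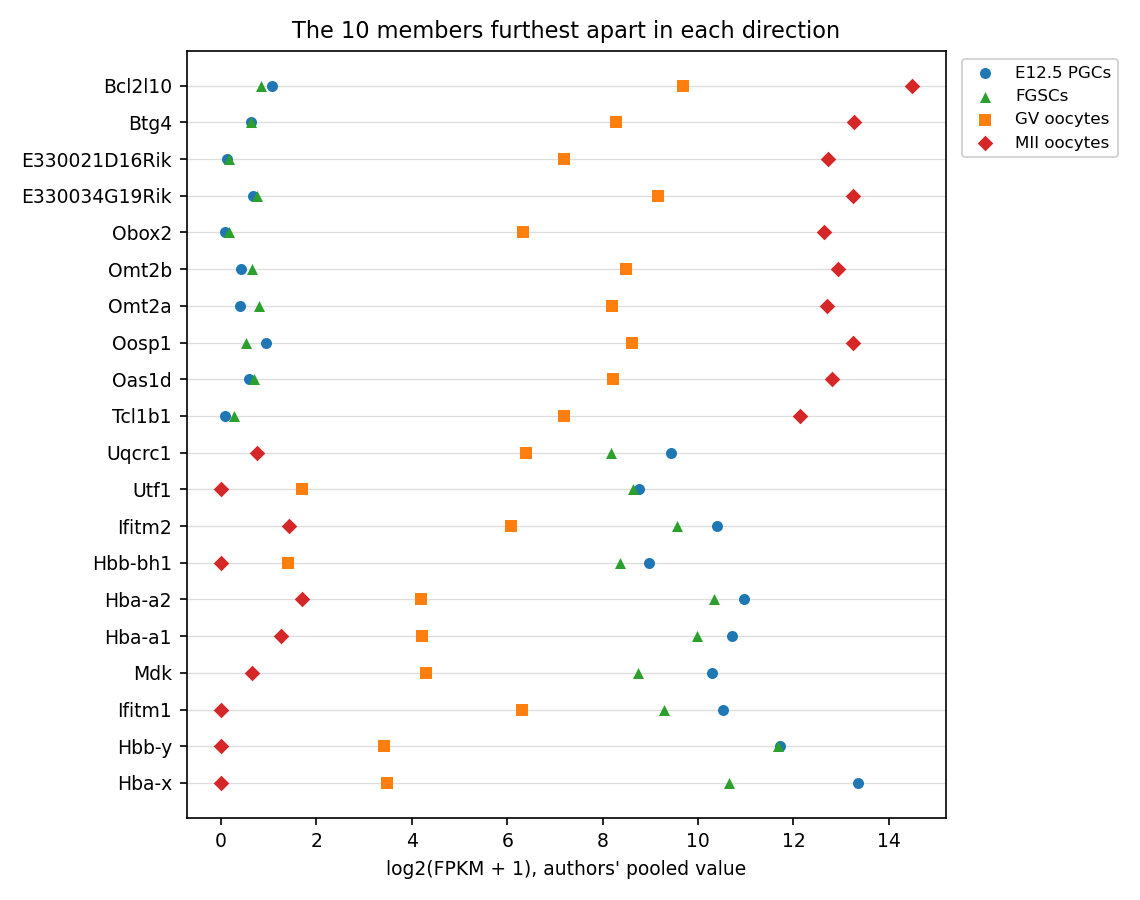
The 10 members furthest apart in each direction, with log2(FPKM + 1) on the x axis and the authors' pooled value of each of the 4 cell types as a symbol. For the upper 10 genes PGCs and FGSCs lie at or below 1.09 FPKM and MII oocytes lie to the right of GV oocytes, and for the lower 10 the order is turned, from PGCs at 434 FPKM or more down to MII oocytes at 2.26 FPKM or less.

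Promoters of some of these genes are shown because the oocyte factor FIGLA, a basic helix-loop-helix protein, is known to bind an E-box (CANNTG) in the promoters of zona pellucida genes. The windows run from 250 bases before to 50 after the first start listed by RefSeq on GRCm38.p6, a build other than that of the tables, 5′ to 3′, with each CANNTG in capitals. The first 4 were higher in MII oocytes and are Btg4 (chr9:51115751-51116050, plus strand), Obox2 (chr7:15388601-15388900, plus strand), Oosp1 (chr19:11691002-11691301, minus strand) and Zp3 (chr5:135979855-135980154, plus strand). The last 3 were lower and are Hba-x (chr11:32276350-32276649, plus strand), Ifitm1 (chr7:140967826-140968125, plus strand) and Utf1 (chr7:139943606-139943905, plus strand).
Btg4: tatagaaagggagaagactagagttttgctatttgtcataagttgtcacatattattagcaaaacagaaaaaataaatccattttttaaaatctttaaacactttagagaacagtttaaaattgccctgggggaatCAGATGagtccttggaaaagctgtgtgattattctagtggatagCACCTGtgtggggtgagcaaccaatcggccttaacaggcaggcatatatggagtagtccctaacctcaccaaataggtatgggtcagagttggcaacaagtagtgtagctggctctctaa
Obox2: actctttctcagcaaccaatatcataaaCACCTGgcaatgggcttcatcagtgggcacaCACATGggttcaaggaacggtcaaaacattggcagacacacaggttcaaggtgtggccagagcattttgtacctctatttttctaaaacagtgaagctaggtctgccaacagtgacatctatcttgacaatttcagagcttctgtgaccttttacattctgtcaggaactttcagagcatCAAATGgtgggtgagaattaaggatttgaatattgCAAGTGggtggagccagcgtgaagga
Oosp1: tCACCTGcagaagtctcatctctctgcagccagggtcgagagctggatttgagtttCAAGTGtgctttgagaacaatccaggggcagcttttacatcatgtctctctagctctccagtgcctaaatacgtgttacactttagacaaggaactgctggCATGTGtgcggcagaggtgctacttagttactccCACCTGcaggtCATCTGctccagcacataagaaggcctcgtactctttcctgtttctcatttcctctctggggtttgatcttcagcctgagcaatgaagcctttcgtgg
Zp3: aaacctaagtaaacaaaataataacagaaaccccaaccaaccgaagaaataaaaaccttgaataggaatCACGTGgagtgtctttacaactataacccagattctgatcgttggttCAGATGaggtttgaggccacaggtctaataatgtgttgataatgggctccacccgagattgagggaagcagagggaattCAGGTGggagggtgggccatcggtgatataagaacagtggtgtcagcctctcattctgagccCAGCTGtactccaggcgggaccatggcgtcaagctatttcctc
Hba-x: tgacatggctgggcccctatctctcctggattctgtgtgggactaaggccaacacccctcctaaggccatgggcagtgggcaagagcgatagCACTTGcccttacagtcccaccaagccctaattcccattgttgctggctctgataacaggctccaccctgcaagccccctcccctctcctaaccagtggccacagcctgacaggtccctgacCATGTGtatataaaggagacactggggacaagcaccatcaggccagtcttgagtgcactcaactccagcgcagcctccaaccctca
Ifitm1: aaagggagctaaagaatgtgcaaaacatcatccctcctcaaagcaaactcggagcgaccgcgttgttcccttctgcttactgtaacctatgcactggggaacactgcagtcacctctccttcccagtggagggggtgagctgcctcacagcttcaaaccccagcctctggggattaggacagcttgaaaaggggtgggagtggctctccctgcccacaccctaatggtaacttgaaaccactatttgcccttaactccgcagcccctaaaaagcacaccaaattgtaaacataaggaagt
Utf1: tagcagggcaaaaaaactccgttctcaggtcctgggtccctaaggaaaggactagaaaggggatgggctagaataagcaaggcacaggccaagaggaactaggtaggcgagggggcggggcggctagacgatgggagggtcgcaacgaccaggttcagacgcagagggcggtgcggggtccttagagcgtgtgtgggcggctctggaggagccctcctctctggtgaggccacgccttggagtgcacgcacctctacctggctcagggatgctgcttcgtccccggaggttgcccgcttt
The Btg4 window holds 2 E-boxes, that of Obox2 4, that of Oosp1 5 and that of Zp3 4. That of Hba-x holds 2 and those of Ifitm1 and Utf1 hold none. The windows shown are a selection and do not stand for all genes of either direction. Since CANNTG reads the same on both strands, 1 search covers both. Of the 10 genes with the largest difference towards the egg, 8 had a window and 8 of these held the motif. Of the 10 towards the fetal germ cell, 8 had a window and 4 held it, with 5 E-boxes in that of Uqcrc1. The motif is short and common. It was in 72.1% of all 27025 RefSeq windows and in 63.8% of the 9980 members with a window. By list, it was in 6 of 7 windows of zona pellucida genes, 16 of 17 of maternal effect genes and 25 of 55 of ribosomal protein genes. The homeobox motif TAATTA or TAATTG, searched on both strands, was in 1 of 8 windows of the first set (Omt2b), in 0 of 8 of the second and in 12.6% of all windows. A match describes letters only and is not a bound site.

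The coat of the egg and the proteins that meet the sperm came first among the lists. All 10 members of the zona pellucida and sperm binding list were higher in MII oocytes, with a median difference of 6.61. Zp3, a glycoprotein of the zona, was at 6.80 FPKM in PGCs and 790 in MII oocytes, yet at 4780 in GV oocytes. Astl, the egg protease ovastacin that cleaves ZP2 after fertilization, went the other way and was at 0.376 FPKM in PGCs, 271 in GV oocytes and 1019 in MII oocytes. Folr4 (Juno), the egg receptor for sperm IZUMO1, was at 0.134, 105 and 105 FPKM in that order, and Cd9, a tetraspanin needed for fusion, was at 80.1, 244 and 163 FPKM, the smallest step of the list. Folr4 and Cd9 were picked once their values were known, as were Zp1 (209 FPKM in MII oocytes and 829 in GV oocytes) and Zp2 (171 and 1248). The 3 zona glycoproteins thus had lower FPKM values in MII than in GV oocytes, while Oosp1 (9696 against 392 FPKM) and its neighbour Gm97 (5530 against 116 FPKM) had higher ones. With oligo(dT) priming, the amount of an mRNA and the length of its poly(A) tail cannot be told apart.

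Growth factors and transcription factors of the oocyte were higher in 12 of 16 members and lower in 1, with a median of 5.85. With more than 1 FPKM required in both cell types the median was 1.37. Gdf9, the growth factor by which the oocyte directs the granulosa cells, was at 2.79 FPKM in PGCs, 2093 in GV oocytes and 12411.5 in MII oocytes. The oocyte homeobox gene Obox5 was at 0.0236, 47.8 and 2877 FPKM. Oog3, an oogenesin with a leucine-rich repeat, was listed at 0 in PGCs and was at 1.27 FPKM in GV oocytes and 3208 in MII oocytes. Other transcription factors of the list did not rank with these. Figla was at 0.885 FPKM in PGCs, 427 in GV oocytes and 2.22 in MII oocytes, and Sohlh1, a helix-loop-helix factor of early oocytes, was at 2.25, 172 and 0.173 FPKM. Nobox, a homeobox factor of the growing oocyte, was at 0.539, 285 and 83.8 FPKM. Sohlh2, a partner of Sohlh1, was at 26.2, 10.6 and 25.7 FPKM, and Tbpl2, a TBP-like factor of the oocyte, was listed at 0 in PGCs and was at 24.8 FPKM in GV oocytes and 29.3 in MII oocytes. Figla, Sohlh1, Nobox, Sohlh2 and Tbpl2 were picked once their values were known.

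Of 19 maternal effect genes, whose products are laid down in the egg for the embryo, 18 were higher in MII oocytes and 1 was lower, with a median of 7.49, the largest of all lists. Zbed3, a component of the subcortical maternal complex, was at 20.8 FPKM in PGCs, 3905 in GV oocytes and 17024 in MII oocytes, on a span shared with other genes. Zar1, an RNA-binding protein of the oocyte-to-embryo transition, was at 1.59, 1942 and 2036 FPKM. Nlrp14 was at 1.02, 1082 and 1266 FPKM. Nlrp4f, another egg member of the NLRP family, was at 0.159, 126 and 1235 FPKM. Other members of the complex were at their highest in GV oocytes. Padi6 was at 5.81 FPKM in PGCs, 4040 in GV oocytes and 1164 in MII oocytes, Tle6 at 16.4, 2004 and 518, and Ooep at 9.18, 1107 and 276. These 3 were picked once their values were known. The list was lower only in Npm3, at 23.3 FPKM in PGCs and 8.85 in MII oocytes, a nucleoplasmin that is also made outside the egg.

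Several of these genes lie in clusters of near copies, which were examined once their values were known. All 6 genes Tcl1 and Tcl1b1 to Tcl1b5 on chromosome 12 were higher, with MII values from 325 to 19179 FPKM and a median difference of 10.28. Tcl1, a co-activator of the kinase AKT, was at 166 FPKM in PGCs, 1016 in GV oocytes and 19179 in MII oocytes. Of 13 genes with names from Fbxw12 to Fbxw28, most of them in a cluster on chromosome 9, 12 were higher, and their median was 8.31. Of 12 egg NLRP genes, 11 passed the limit of 1 FPKM and were higher, with a median of 7.96. A gene near 0 FPKM in PGCs could pass only through its value in MII oocytes. The limit thus set the direction of such genes, though not the size of their difference, and their count as higher is no support. The same holds for each gene near 0 in PGCs in the other clusters and in any list. Conversely, a gene near 0 FPKM in MII oocytes could pass only through its value in PGCs, and its count as lower is no support. Reads of near copies can be divided between them in ways the table does not show, so the values of single copies are uncertain.

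The machinery of meiotic arrest was split by member. Of 23 genes, 13 were higher in MII oocytes and 5 lower, with a median of 1.11. Mos, the kinase that holds the egg at metaphase through the MAP kinase pathway, was at 0.430 FPKM in PGCs, 266 in GV oocytes and 3772 in MII oocytes. Wee2, the oocyte kinase that inhibits CDK1, was at 0.0386, 48.5 and 948 FPKM. Ccnb1, the cyclin partner of CDK1, was at 233, 67.9 and 2248 FPKM, while Cdk1 itself, picked once its values were known, was at 171, 148 and 16.0 FPKM. Ccnb2, the second B-type cyclin, was at 353 and 735 FPKM in PGCs and MII oocytes. Wee1, the somatic form of Wee2, was at 13.8 FPKM in PGCs and 2.16 in MII oocytes. Of the CDC25 phosphatases that activate CDK1, Cdc25c was at 8.34 and 0.206 FPKM, Cdc25a at 6.58 and 15.4 and Cdc25b at 1.48 and 6.02. Fbxo43 (Emi2), the inhibitor of the anaphase promoting complex that keeps the egg in metaphase, was at 0.0102 and 111 FPKM, and Fbxo5 (Emi1), its mitotic relative, was at 48.4 and 79.6 FPKM. Wee1, the CDC25 genes, Fbxo43 and Fbxo5 were picked once their values were known.

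Genes of the spindle and its checkpoint were higher in 14 of 24 members and lower in 2, with a median of 1.63. Aurkc, the Aurora kinase of meiotic cells, was at 26.5 FPKM in PGCs, 87.4 in GV oocytes and 1527 in MII oocytes, while Aurkb, its mitotic relative (picked once its values were known), was at 36.5 FPKM in PGCs and 34.7 in MII oocytes. Mad2l1 of the checkpoint was at 172 and 1209 FPKM, Birc5 (survivin) at 235 and 1026 and Bub1b at 48.7 and 911. Among 15 cohesin genes 7 (46.7%) were higher and 3 (20%) lower, against 44.9% and 34.5% of all members. Pttg1, the securin that restrains separase until anaphase, was at 325 FPKM in PGCs, 1119 in GV oocytes and 14030 in MII oocytes. Of the acetyltransferases that establish cohesion, Esco2 was at 55.4 and 300.1 FPKM and Esco1 at 19.3 and 144, and Wapal, which releases cohesin, was at 69.6 and 139. The meiotic cohesin subunit Stag3, picked once its values were known, was at 16.6 FPKM in PGCs and 0.410 in MII oocytes.

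The genes that store and unmake mRNA stood higher in the egg. For storage and translational control 17 of 21 members were higher and 2 lower, with a median of 3.31. Dazl, an RNA-binding protein of germ cells that drives translation in the maturing egg, was at 34.2 FPKM in PGCs, 82.6 in GV oocytes and 900 in MII oocytes. Pabpn1l, an egg poly(A)-binding protein, was at 0.229, 132 and 1626 FPKM, on a long span shared with many genes. Ybx1, a cold shock protein of somatic and early cells, was lower, at 619 FPKM in PGCs and 192 in MII oocytes. The poly(A) polymerase Papola was at 164 and 518 FPKM. The general cytoplasmic poly(A)-binding protein Pabpc1 was at 208 and 4.21 FPKM, while its oocyte form Pabpc1l was at 0.179 and 30.1 FPKM. For mRNA decay 15 of 26 members were higher and 7 lower, with a median of 1.96. Besides Btg4, the CCR4-NOT deadenylase Cnot7 was at 47.6 FPKM in PGCs and 1042 in MII oocytes, Pan3 of the PAN2-PAN3 deadenylase at 105 and 472, Cnot8 at 53.4 and 440, and Cnot6l, another deadenylase of the complex, at 2.59 and 176. Zfp36l1, which binds AU-rich elements, was at 142 and 0.732 FPKM. Pabpc1, Pabpc1l, Cnot6l and Zfp36l1 were picked once their values were known.

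Factors that protect or reset DNA methylation were higher in 13 of 20 members and lower in 4, with a median of 2.07. Dppa3 (Stella), which guards the maternal genome from demethylation, was abundant in both cell types, at 1288 FPKM in PGCs and 10133.5 in MII oocytes. Zfp57, which keeps imprints methylated, was at 11.1 FPKM in PGCs, 418 in GV oocytes and 794 in MII oocytes. Its partner Trim28 was at 146, 94.6 and 251 FPKM. Tet3, the oxidase of the zygote, was at 1.23, 41.1 and 211 FPKM, and Tet1, its relative of fetal germ cells, was at 4.02, 1.84 and 20.8 FPKM. Uhrf1, which brings DNMT1 to replicated DNA, was at 1.73, 332 and 178 FPKM, and Dnmt3l, the cofactor of de novo methylation in oocytes, was listed at 0 in PGCs and was at 100.1 FPKM in MII oocytes. Tdg, a DNA glycosylase of active demethylation, was at 23.2 and 0.0166 FPKM. Tet1, Uhrf1, Dnmt3l and Tdg were picked once their values were known.

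Polycomb genes, which silence chromatin through histone H3K27 methylation and H2A ubiquitination, were higher in 18 of 24 members and lower in 2, with a median of 1.96. Pcgf1, a ring finger subunit of complex 1, was at 24.1 FPKM in PGCs, 288 in GV oocytes and 2098 in MII oocytes. Bmi1, another, was at 8.63, 13.5 and 329 FPKM, Pcgf6 at 27.7, 76.8 and 280.0 FPKM and the Polyhomeotic protein Phc2 at 4.66, 57.9 and 287 FPKM. Ezh2, the methyltransferase of complex 2 and picked once its values were known, was at 57.0, 45.9 and 278 FPKM. F-box genes, the substrate adaptors of SCF ubiquitin ligases, were higher in 32 of 47 and lower in 8, with a median of 2.43. Their 4 most abundant members, Fbxw24, Fbxw14, Fbxw19 and Fbxw28, belong to the egg cluster above and were at 2729, 1617, 1044 and 984 FPKM in MII oocytes, against at most 0.661 in PGCs. Of the calcium genes, 9 of 15 were higher and 3 lower. Of the calmodulins, the calcium sensors of the cell, Calm2 was at 4291 FPKM in PGCs and 209 in MII oocytes, and Calm3 at 194 and 6.87. Itpr2, a receptor that releases calcium from stores, was at 1.45 and 329 FPKM.

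**Figure D3:**
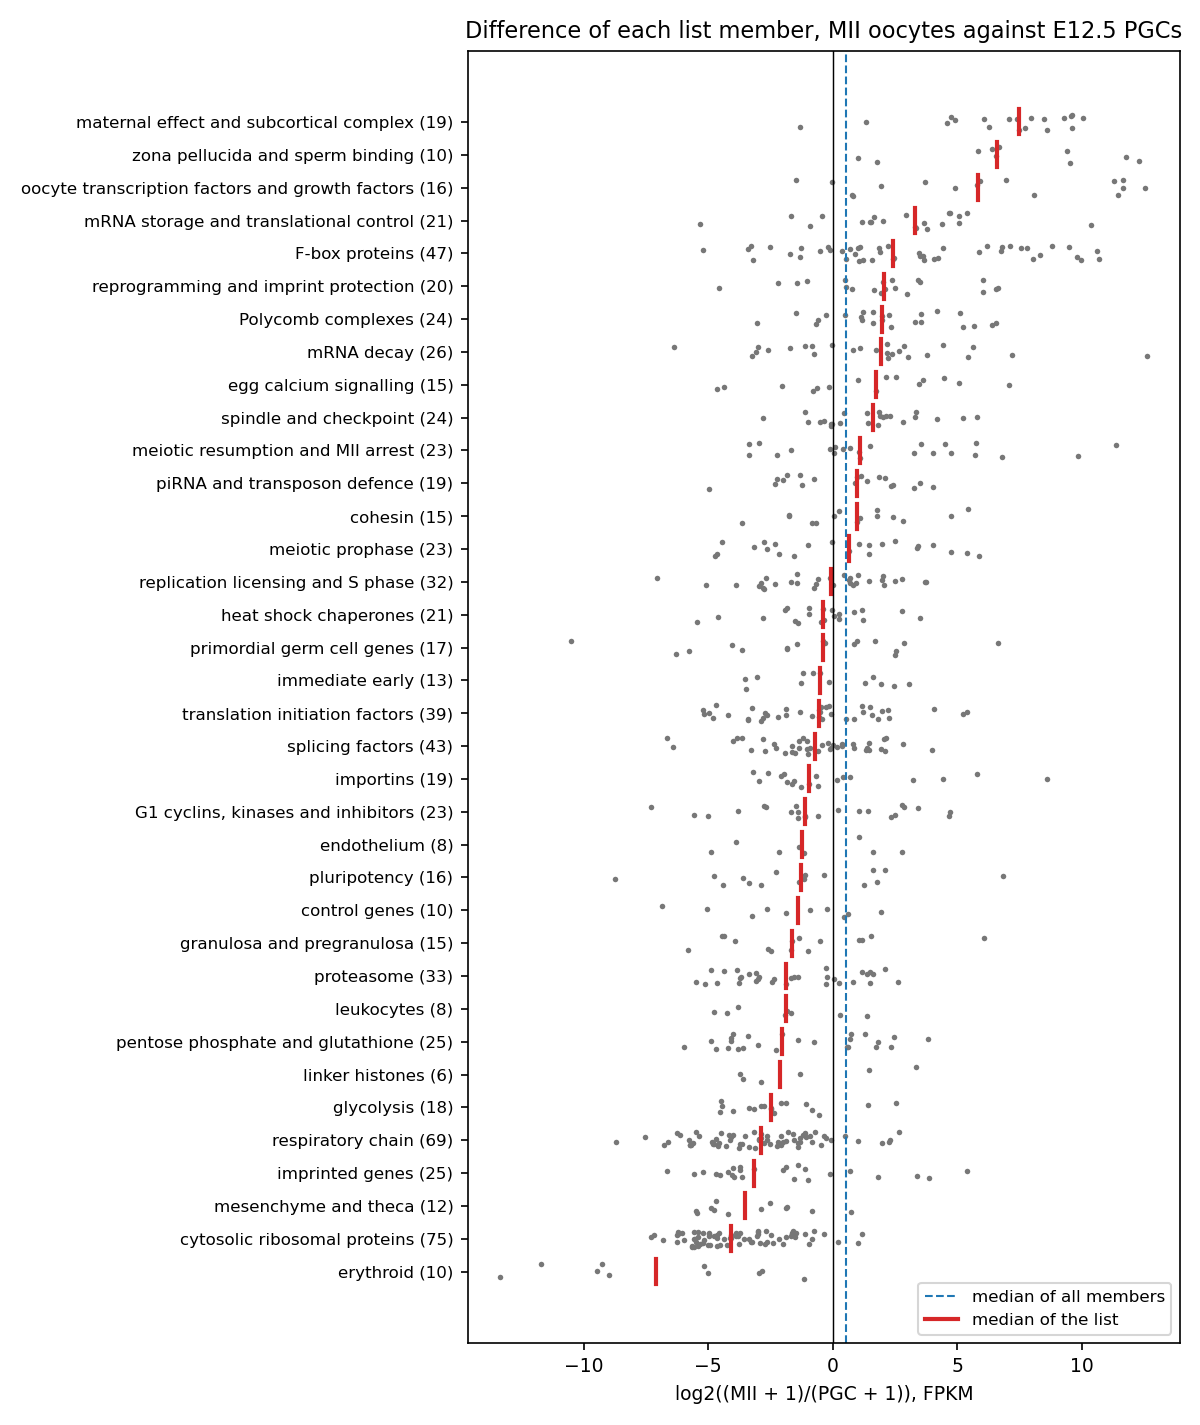
Difference of each list member on the scale log2((MII + 1)/(PGC + 1)), 1 grey point per gene, with the number of members in brackets, the median of the list as a red bar and the median of all members (0.55) as a dashed line. List medians run from 7.49 for maternal effect genes to -7.08 for erythroid genes, and most lists hold genes on both sides of 0.

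Genes of the ribosome had lower FPKM values in the egg. Of 75 genes of cytosolic ribosomal proteins, 68 were lower and 2 higher, against 34.5% and 44.9% of all members, with a median of -4.10. They summed to 81408 FPKM in PGCs, 43920 in GV oocytes and 14562 in MII oocytes, or 12.8%, 8.28% and 1.27% of the autosomal FPKM. Rpl35 was at 4934 FPKM in PGCs, 1658 in GV oocytes and 131 in MII oocytes. Rps14 was at 2996, 1124 and 392 FPKM. Rps27l, a variant of Rps27 that is a target of p53, was one of the 2 that were higher, at 1839, 747 and 3763 FPKM. The other was Rps15a, at 519, 350.4 and 1164 FPKM, picked once its values were known. Rps27, picked likewise, was at 2962, 1339 and 39.3 FPKM. Rpl13a was not matched in the tables, and genes of this family have many processed copies among which reads can be divided.

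Genes of the respiratory chain followed. Of 69 nuclear genes of its complexes and of ATP synthase, 56 were lower and 5 higher, with a median of -2.89, and their share of the autosomal FPKM was 6.30% in PGCs, 5.50% in GV oocytes and 1.15% in MII oocytes. Cox7c of complex IV was at 3207 FPKM in PGCs, 696 in GV oocytes and 31.9 in MII oocytes, and Atp5g1 of ATP synthase was at 1594, 645 and 28.9 FPKM. Cox8a and Ndufa4 went the other way, at 540 and 961 FPKM in PGCs and 2661 and 1936 in MII oocytes. Of 33 proteasome genes 20 were lower and 7 higher, with a median of -1.86. Psmb6, a catalytic subunit, was at 1845 FPKM in PGCs and 635 in MII oocytes, Psmb2 at 855 and 714, Psmb1 at 658 and 49.3, Psma7 of the outer ring at 1008 and 1798, and Psmc2, an ATPase of the cap picked once its values were known, at 360 and 9.34.

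Of 18 glycolytic genes 14 were lower and 2 higher, with a median of -2.48. Eno1 (enolase) was at 444 FPKM in PGCs, 55.4 in GV oocytes and 18.8 in MII oocytes. Aldoa (aldolase) was at 280, 198 and 11.3 FPKM, and Pkm2 (pyruvate kinase) was at 256, 206 and 10.8 FPKM. Ldhb, the lactate dehydrogenase subunit of the oocyte, stood against them, at 1275, 5082 and 7435 FPKM, and it made up most of the list's summed FPKM in MII oocytes (7602 FPKM). The form Ldha, picked once its values were known, was at 50.3 FPKM in PGCs and 2.23 in MII oocytes. Genes of the pentose phosphate pathway and of glutathione and peroxide removal were lower in 14 of 25 and higher in 6. Gpx1, a glutathione peroxidase, was at 693 and 86.3 FPKM, while Prdx2, a peroxiredoxin, was at 438 and 705 and Taldo1 (transaldolase) at 129.8 and 442. The peroxiredoxin Prdx1 was at 821 and 4528.5 FPKM.

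Translation initiation factors and splicing factors were mixed. Of 39 initiation factors 11 were higher and 17 lower, with a median of -0.53. Eif2b1, of the exchange factor of eIF2, was at 51.6 FPKM in PGCs and 1985 in MII oocytes, Eif4a1, a helicase, was at 484 and 1439, Eif5a, a factor of elongation as well, was at 1151 and 1047, and Eif1b was at 57.7 and 981. Eif3g of the eIF3 complex, picked once its values were known, was at 604 and 16.0 FPKM. Of 43 splicing genes 10 were higher and 19 lower. Subunits of the same Sm ring stood on opposite sides. Snrpg was at 749 FPKM in PGCs and 3206 in MII oocytes and Snrpe at 622 and 1710, as was Snrpd3 at 124 and 887, but Snrpd2 was at 1019 and 9.05. Of 19 importins and exportins 4 were higher and 9 lower. Kpna2, an importin of dividing cells, was at 651 and 210 FPKM, while the egg importin Kpna7 was at 0.137 and 443, Ipo8 at 7.56 and 477 and Kpna3 at 7.30 and 176. Of 21 heat shock chaperones 4 were higher and 7 lower. The inducible form of HSP90, Hsp90aa1, was at 678 FPKM in PGCs and 7632 in MII oocytes, the constitutive Hsp90ab1 at 827 and 221, Hspa8 at 1277 and 51.5, and the mitochondrial Hspe1 at 639.7 and 490.4.

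**Figure D4:**
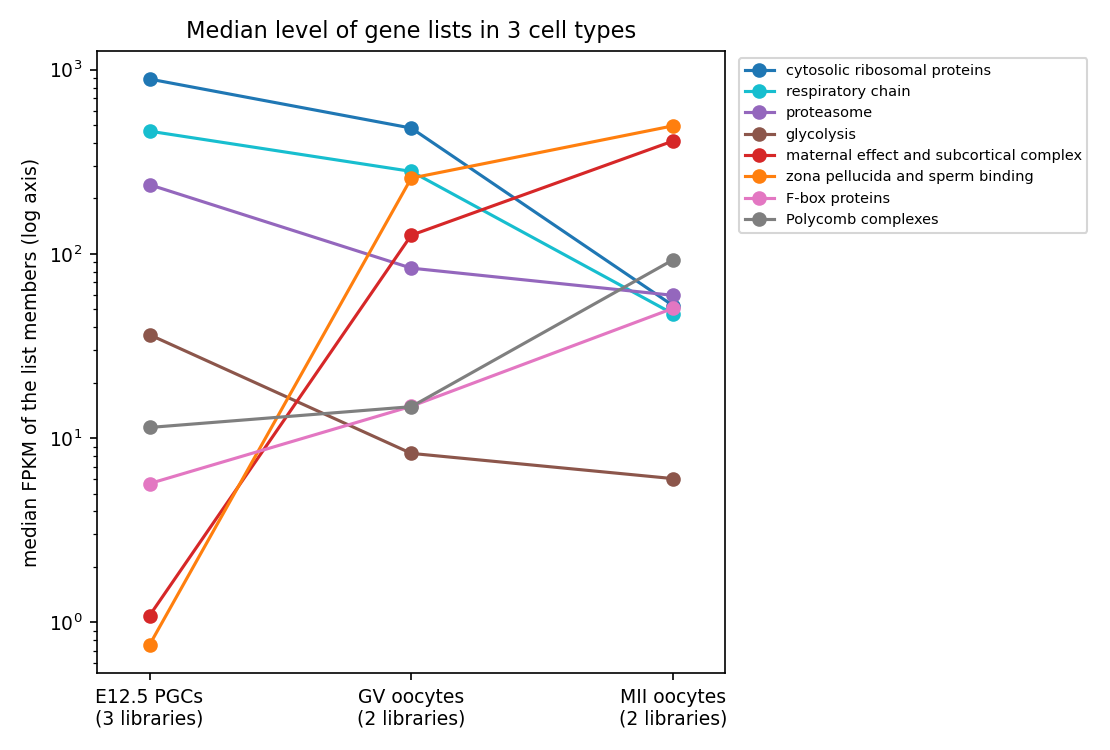
Median FPKM of the members of 8 lists (log axis) in PGCs, GV oocytes and MII oocytes, each point the median over genes of the authors' pooled values. Ribosomal proteins stand at 890 FPKM, 482 and 52.5 in that order and the respiratory chain at 464, 281 and 47.3, while maternal effect genes stand at 1.09, 126 and 410 FPKM.

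Genes of the fetal germ cell itself did not all stand lower in the egg. Of 17 genes of PGCs 8 were lower and 5 higher, with a median of -0.40. Dppa5a, an RNA-binding protein of pluripotent cells, was at 4601 FPKM in PGCs, 3368 in GV oocytes and 372 in MII oocytes, and Dppa4, which pairs with Dppa2 on chromatin, was at 166, 4.06 and 1.14 FPKM. Ifitm3, next to Ifitm1, was at 626, 118 and 476 FPKM. Nanos3, the RNA-binding protein that protects migrating PGCs, was at 53.3, 1.30 and 0 FPKM, and Kit, the receptor of stem cell factor in PGCs and in growing oocytes, was at 12.1, 69.8 and 94.8 FPKM. Ddx4, the helicase used for the sort of the PGCs, was at 64.0, 31.9 and 17.2 FPKM. Nanos3 and Kit were chosen as markers of PGCs.

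Of 16 pluripotency genes 10 were lower and 5 higher, with a median of -1.26. Besides Utf1, Nanog was at 23.6 FPKM in PGCs and 1.04 in MII oocytes, Zfp42 (Rex1) at 32.3 and 0.212 and Sox2 at 10.0 and 1.27, all 3 picked with their values known. Pou5f1 (Oct4) was at 10.1 FPKM in PGCs, 60.4 in FGSCs, 135 in GV oocytes and 32.8 in MII oocytes. Sall4, a zinc finger factor of germ cells and embryos, was at 189 and 449 FPKM in PGCs and MII oocytes. Tcl1, described above, held most of this list's summed FPKM in the egg.

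Meiotic prophase genes were divided, with 11 of 23 (47.8%) higher and 10 (43.5%) lower, against 44.9% and 34.5% of all members. The median of the list was 0.67, and -0.09 with both columns scaled to the same sum. Syce2 of the synaptonemal complex was at 571 FPKM in PGCs, 736 in GV oocytes and 565 in MII oocytes. Tex12, its partner, was at 18.4 and 206 FPKM in PGCs and MII oocytes, and Mei4, of the double strand break machinery, was at 3.10 and 109. Hormad1 of the chromosome axis was at 53.3 and 1.14 FPKM, Syce1 at 34.2 and 0.611 and Spo11, which makes the breaks, at 5.27 and 0 (picked once their values were known). Of 19 genes of piRNAs and transposon defence 9 (47.4%) were higher and 7 (36.8%) lower, close to the shares of all members. Fkbp6 was at 258 FPKM in PGCs and 7.17 in MII oocytes, Gtsf1 at 13.4 and 234, and Asz1 at 28.1 and 123.

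Genes of DNA replication showed no common direction, with 9 of 32 higher, 12 lower and a median of -0.05. Gmnn (geminin), which blocks a second round of licensing, was at 126 FPKM in PGCs and 876 in MII oocytes. Orc6 of the origin recognition complex was at 62.7 and 854 FPKM, Orc5 at 39.0 and 527 and Rpa3 at 187 and 732. In contrast, Fen1, the flap endonuclease of lagging strand synthesis, was at 134 FPKM in PGCs and listed at 0 in MII oocytes, and Tyms (thymidylate synthase) was at 264 and 16.8, both picked with their values known. Of 23 genes of the G1 phase 9 were higher and 12 lower, with a median of -1.10. Cdk4, on a span shared with another gene, was at 688 and 3.32 FPKM, and the inhibitor Cdkn1a (p21) was at 187 and 4.84, picked likewise. E2f5 stood at 35.2 and 941 FPKM, E2f4 at 6.80 and 197 and Ccna2 (cyclin A2) at 39.3 and 438.

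Of 25 imprinted genes that passed the limit, 18 were lower in the egg and 4 higher, with a median of -3.16. Phlda2, which restrains growth of the placenta, was at 2241.5 FPKM in PGCs, 5.78 in GV oocytes and 171 in MII oocytes. H19, an imprinted non-coding RNA, was at 108, 16.2 and 0.0710 FPKM, and Cdkn1c was at 182, 27.3 and 2.90 FPKM. Mest was higher, at 48.6, 11.1 and 519 FPKM, and Gnas, which encodes the stimulatory G protein, was at 123, 222 and 113 FPKM. H19 was picked once its values were known. Linker histones other than H1foo were lower in 4 of 6 members and higher in 2. H1f0 was at 390 FPKM in PGCs and 30.9 in MII oocytes, Hist1h1b at 30.7 and 1.38, Hist1h1e at 6.66 and 2.06 and Hist1h1a, which was higher, at 0.661 and 16.0.

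Markers of other cell types were read in the PGC column, although these cells had been sorted for the Mvh reporter. Genes near 0 FPKM in MII oocytes passed the limit only through PGCs, so their counts as lower in these lists are no support. Of 10 erythroid genes that passed the limit, 10 were lower in MII oocytes. The 11 genes found for this list summed to 18180 FPKM in PGCs, 2.85% of the autosomal FPKM, to 7701 in the sorted FGSCs, to 63.5 in GV oocytes and to 6.49 in MII oocytes, where 7 were listed at 0, Hba-x and Hbb-y among them. Of 15 mesenchyme and theca genes, 12 passed the limit, 10 were lower and none was higher. Their median was -3.54, and -0.57 with more than 1 FPKM required in both cell types. The list summed to 303 FPKM in PGCs and 18.5 in MII oocytes. Vim (vimentin) was at 54.4 and 0.880 FPKM, the collagen genes Col1a1 and Col3a1 were at 52.8 and 0.237 and at 50.7 and 0.136, and the nuclear receptor Nr2f2 was at 35.1 and 0.312. Of 20 granulosa and pregranulosa genes, 15 passed the limit, 9 were lower and 4 higher, and their sum was 178 and 108 FPKM. Foxl2 and Amh, which define granulosa cells, were at or under 1 FPKM in both cell types, as were Fshr and Inhba. The gonadal transcription factor Wt1 was at 61.3, 5.10 and 0.124 FPKM in PGCs, GV oocytes and MII oocytes, Lhx9, a homeobox factor of the gonad, at 20.0, 0.125 and 0.0154 and Fst (follistatin) at 22.8, 5.10 and 0.0982. Cyp19a1 (aromatase) was at 0.0205 FPKM in PGCs, 0.379 in GV oocytes and 68.2 in MII oocytes. Leukocyte genes were lower in 6 of 8 members and higher in 1, and summed to 74.0 FPKM in PGCs, 3.38 in GV oocytes and 10.8 in MII oocytes. Of the neutrophil genes among them, Camp was at 25.9 and 0 FPKM in PGCs and MII oocytes, Ngp at 18.0 and 0 and S100a8 at 13.0 and 0, while Cd68 of macrophages was at 6.43 and 8.15. Of 8 endothelial genes 5 (62.5%) were lower and 3 (37.5%) higher, against 34.5% and 44.9% of all members, with a median of -1.24. The list summed to 81.5 FPKM in PGCs, 149 in GV oocytes and 60.4 in MII oocytes. Egfl7 was at 34.3 and 0.197 FPKM in PGCs and MII oocytes and Emcn at 15.9 and 0.146, against Pecam1 at 20.4 and 43.6 and Vwf at 0.735 and 10.8. Of 8 cumulus genes 1 passed the limit, Tnfaip6, at 6.85 FPKM in PGCs and 0 in MII oocytes. The part of these cells in the lower members was not tested, and in a bulk sample fewer cells of a type and less RNA per cell cannot be told apart.

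Immediate early genes were higher in 5 of 13 members and lower in 5 (38.5% each), against 44.9% and 34.5% of all members. The list summed to 190 FPKM in PGCs, 845 in GV oocytes and 334 in MII oocytes. Dusp1, a phosphatase of MAP kinases, was at 68.9, 53.8 and 269 FPKM in that order, Ier2 at 60.1, 145 and 6.39, Jund at 20.7, 61.7 and 0.938 and Egr1 at 2.22, 76.4 and 16.5. Of 10 genes often used as controls, 5 were lower in MII oocytes and 1 was higher. Actb (beta-actin) was at 8722 FPKM in PGCs, 817 in GV oocytes and 74.0 in MII oocytes, and Gapdh was at 232, 226 and 62.7 FPKM. Ppia (cyclophilin A) was at 2182, 1194 and 227 FPKM, and Ywhaz, a 14-3-3 protein, was the higher one, at 345, 306 and 1322. Among the most abundant genes of PGCs, Ubb (ubiquitin) was at 6940 FPKM there and 1031 in MII oocytes, and the nuclear RNA Malat1, on a shared span, was at 6220 and 28.7. H3f3b, which encodes histone H3.3, was alike in both columns, at 6577 FPKM in PGCs and 6498 in MII oocytes, and was at 664 in GV oocytes.

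The same members were then set against GV oocytes, the step before maturation. In MII oocytes 5203 members (37.8%) were higher than in GV oocytes and 3305 (24.0%) were lower, with a median difference of 0.30. Genes above 1 FPKM in GV oocytes alone are not members, which limits the lower count, and over all autosomal genes with no limit 5203 were higher and 4071 lower. Since the autosomal sum in MII oocytes was 2.16 times that in GV oocytes, these counts depend on the scale, and with the sums made equal by scaling MII oocytes to GV oocytes they were 2943 and 4691. The low lists set MII oocytes apart from GV oocytes as well. Of the ribosomal protein genes 65 of 75 were lower in MII than in GV oocytes, with a median of -3.22, and of the respiratory chain 50 of 69, with a median of -2.36. Spindle genes were higher than in GV oocytes in 17 of 24 members and cohesin genes in 11 of 15. Of the maternal effect genes 8 were higher in MII than in GV oocytes and 6 lower, with a median of 0.23.

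The members also differed by kind and length of transcript. By the GENCODE M21 annotation, to which 95.8% of members were matched, 5247 of 11926 protein-coding members were higher in MII oocytes and 4126 lower, with a median of 0.47. Of 213 lincRNAs 148 were higher and 51 lower, with a median of 1.78, and of 295 antisense genes 168 were higher and 90 lower. Strand was not marked by the protocol as described, so that an antisense gene and its partner cannot be told apart. The lincRNA Gm1965 was at 0.183 FPKM in PGCs, 130 in GV oocytes and 2532 in MII oocytes, and Gm11381 was listed at 0 in PGCs and was at 0.306 FPKM in GV oocytes and 1789 in MII oocytes. Both were picked once their values were known.

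**Figure D5:**
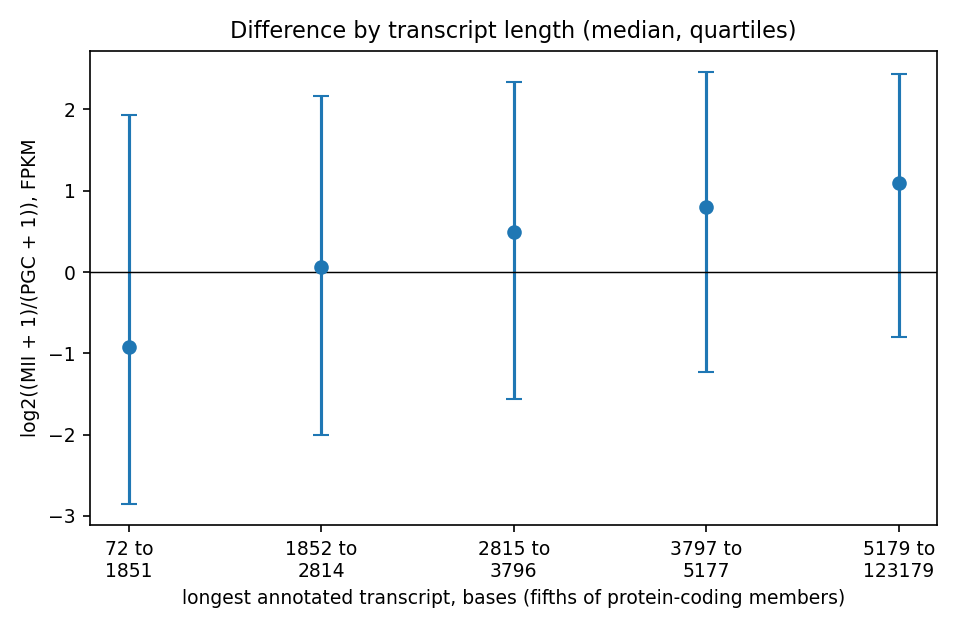
Difference between MII oocytes and PGCs, log2((MII + 1)/(PGC + 1)), for quintiles of the protein-coding members by the longest annotated transcript in bases. Points are medians and bars run from the lower to the upper quartile over genes, and the medians go from -0.92 in the shortest quintile to 1.10 in the longest.

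Short transcripts were on the whole lower in the egg. In the quintile of protein-coding members with the shortest transcripts, up to 1851 bases, the median was -0.92, and it was 0.07, 0.49, 0.80 and 1.10 in the next quintiles. Without the lists of ribosomal proteins, respiratory chain and proteasome, whose transcripts are short, the shortest quintile had a median of -0.71 and the longest one of 1.10. Whether length had a part in the list values was not tested. By chromosome the median ran from -0.22 on chromosome 17 to 1.14 on chromosome 5, with between 337 and 1206 members on each, and the range between autosomes was small beside the quartiles of -1.67 and 2.29 over all members.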

How the data were processed

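RNA of mouse germ cells was sequenced after oligo(dT) primed cDNA synthesis and PCR preamplification. Per the labels and the submitters' processing notes, the authors aligned reads with TopHat2 and computed FPKM with Cufflinks 2.2.1 on mm9, and the study's methods name mm10. Each of the 6 deposited tables gives a gene 1 FPKM value for either of its cell types, pooled by the authors, so no error can be given, depth is unknown and no whole reads were recovered. Their log2 ratios, test statistics, p-values and q-values are the authors' own comparisons and were not used. A cell type had the same values in every table.

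Differences were log2((FPKM + 1) in MII oocytes over (FPKM + 1) in E12.5 PGCs), computed with pandas for autosomal genes above 1 FPKM in either, without tests, and were tested on simulated data. Members and the 37 lists were chosen with earlier results of these data known. Named were the 10 largest differences in each direction, the 5 highest FPKM per cell type, the 4 most abundant members of a list, Pou5f1, Ddx4 and Gapdh, and the markers of each cell type. Some of these genes are not reported here. Others are said to be picked with their values known. A symbol on several rows was taken at its highest row. There were 6032 members (43.8%) whose listed span is also that of another gene, which makes their values uncertain. Promoters are those of RefSeq (GRCm38.p6). Alternatives covered the pseudocount, the FPKM limit, scaling, annotation, status, repeated symbols, shared spans (added after seeing the data) and the fold.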

Additional observations from a re-analysis of the deposited data

How the results depend on the processing

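No paired analysis was possible because the tables hold pooled values, and for the same reason no library could be left out. With all columns scaled to the autosomal sum of PGCs, the overall median was -0.15, the share of higher genes among those at least 2-fold apart was 44.8% (56.6% as reported, 46.5% with differences centred on their median), the meiotic prophase median was -0.0946 and 3059 members were higher in MII than in GV oocytes. With a pseudocount of 5 FPKM, 3019 members were lower than in PGCs, 2090 lower than in GV oocytes, and the range of autosome medians was 0.59. Requiring more than 1 FPKM in both cell types left 2998 higher and 2228 lower members, 3186 higher and 1832 lower than in GV oocytes and a range of autosome medians of 0.89, and gave medians of 0.00998 for replication genes and 0.30 for leukocyte genes. That requirement also moved list medians without a change of sign. They were 1.37 for oocyte factors, 1.59 for mRNA storage, 1.07 for F-box genes, -1.55 for imprinted genes and -0.57 for mesenchyme and theca. Those of maternal effect, zona pellucida and ribosomal protein genes were 7.42, 6.11 and -4.10. At 4-fold, 3949 members were higher and 2870 lower, and 2890 and 1674 against GV oocytes. A limit of 5 FPKM left 4486 members above it in both cell types and gave an immediate early median of 0.18. With no limit the range of autosome medians was 0. Without genes on shared spans, 3480 members were higher and 2732 lower, 2928 and 1898 against GV oocytes, 4277 above 1 FPKM in both, 1566 in E12.5 PGCs only and 1905 in MII oocytes only, the meiotic prophase median was -1.003 and that of heat shock chaperones 0.0443. Fewer genes enter under the stricter limits and without shared spans, and the cause of the other moves was not tested. No other list median changed sign, and no gene at least 2-fold apart and named by the rule did.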

Other observations

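The mitochondrial genome lay outside the autosomal comparison. Of 13 mRNAs it encodes, 5 were at least 2-fold higher in MII oocytes than in E12.5 PGCs and 1 was lower, with a median difference of 0.93 on the log2 scale. mt-Cytb, a subunit of respiratory complex III, was at 15799 FPKM in PGCs, 1180 in GV oocytes and 7614 in MII oocytes. mt-Co2 of complex IV was at 1489, 1890 and 4131 FPKM in that order, and mt-Nd3 of complex I was at 96.8, 319 and 2891 FPKM. Another mRNA of complex I, mt-Nd4l, was at 0.150 FPKM in PGCs and listed at 0 in GV and MII oocytes. The mRNAs of the respiratory chain from the 2 genomes had medians of different sign, 0.93 for the mitochondrial and -2.89 for the 69 nuclear genes. The median over all autosomal members was 0.55, and -0.15 with both columns scaled to the same sum. Whether the sign of the mitochondrial median holds on that scale was not tested.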
